A study of Mus musculus with 12 samples.

Results

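How the difference between macrophages inside and outside tumour spheres moved from 24 h to 48 h was measured on all 12 of the 12 arrays of the study. For each gene the in-sphere minus outside difference at 24 h was taken from the same difference at 48 h, within replicate experiments. A positive value of this change means that the in-sphere level, relative to the outside level, was higher at 48 h than at 24 h. All values are on the log2 scale. Of 17097 genes with a probe set of their own, 12488 passed a filter on low values and were tested.

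The groups had 3 arrays each and carried no treatment. TT9423, a mouse neuroblastoma line, was grown into spheres over agar, to which an equal number of macrophages derived from C57BL/6 bone marrow was added. In-sphere macrophages at 24 h and 48 h were CD11b+ cells, per the labels, and came from spheres that were digested with DNase and collagenase. Outside macrophages at 24 h and 48 h were cells of the same cultures that had not entered the spheres. The digestion is described for the spheres, while the sources used here do not say whether outside cells were digested or selected. Replicates were independent experiments, each pooling the cells of several wells. Titles and time labels give the times, and the common protocol text describes 24 h of co-culture even for the arrays labelled 48 h. The model holds 1 tumour line and macrophages matured in culture, and the sources used here do not give the age of the mice. Fewer cells of a type and less RNA per cell cannot be told apart in such bulk samples.

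Macrophages grown from bone marrow leave the cell cycle as they mature, and their division is recognised by transcripts that accumulate from S phase to mitosis, such as those of cyclins, spindle motors and kinetochore proteins. Immature and monocyte-like cells carry the chemokine receptor CCR2 and granule proteases, which decline with maturation. Cells of the macrophage lineage can also form osteoclasts, whose proton pump and surface receptors are used to dissolve bone, while mineral-binding matrix proteins such as bone sialoprotein are best known from bone-forming cells.

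From 24 h to 48 h the outside cells lost transcripts of cell division, of the monocyte receptor Ccr2 and of cytokines such as Cxcl10 and Il10, while most of these genes had no called time change in the spheres. For the called genes among them the in-sphere minus outside difference rose, which widened it where the in-sphere level was already the higher and turned its sign for Il10. The change was called for 65 genes (0.52% of the 12488 tested), 45 higher (0.36%) and 20 lower (0.16%), at a limma Benjamini-Hochberg adjusted p under 0.05. Its size was at least 1 on the log2 scale for 43 of the higher and 15 of the lower genes. Of the 65 genes, 27 are known for roles in cell division, 13 in immune signalling or immature myeloid cells and 3 in bone matrix. These roles were given after the values were seen. In the spheres 20 of the 27 division genes were higher at an unadjusted p under 0.05, against 3.54% of all genes. For 26 of the 27, the test given below left undecided which side moved more. A missing call in the spheres thus does not show an absence of change. The adjusted p-values of the 65 changes lay close together, between 0.0288 and 0.0499. When the replicate block was left out or fitted within each time, 0 genes were called. Leaving out in-sphere replicate 2 or 3 of 24 h, outside replicate 3 of 24 h or any of the 3 outside arrays of 48 h also left 0 calls, and leaving out in-sphere replicate 1 of 48 h or outside replicate 2 of 24 h left 1 and 2. In each of these fits all 65 changes kept their sign and had an unadjusted p under 0.05, a level that 4.33% of all genes reached with a higher and 9.29% with a lower change in the fit reported. These fits reuse arrays by which the 65 genes were chosen, which largely fixes that outcome.

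To say which side moved, the change was split into the 48 h minus 24 h change of the in-sphere cells and that of the outside cells, which are parts of the same value from the same arrays. Outside cells changed in 158 genes (1.27%), 60 higher (0.48%) and 98 lower (0.785%). In-sphere cells changed in 15 genes (0.12%), 4 higher (0.032%) and 11 lower (0.0881%). With an unadjusted p under 0.05, 7.05% of all genes had positive and 5.27% negative changes outside, and 3.54% and 8.66% did in the spheres. Leaving out any single outside array gave 27 to 95 calls outside in place of 158, and leaving out in-sphere replicate 2 of 24 h gave 80. The 15 in-sphere calls became 2 to 9 without in-sphere replicate 1 or 3 of 24 h, in-sphere replicate 3 of 48 h, any outside array of 24 h or outside replicate 2 or 3 of 48 h. Among the 65 genes, 48 were called in the outside change alone, 2 in the in-sphere change alone, 0 in both and 15 in neither. The outside change was the larger in size in 53 of the 65 (81.5%), against 49.3% of all genes tested. Whether it was larger beyond error was tested for each gene by the sum of both changes, which is 0 when the sides move equally far in opposite directions. On that test the outside cells moved more in 11 genes (0.0881% of genes tested) and the in-sphere cells in 1 (0.00801%), while 53 were undecided (0.424%). These counts rested on every array: leaving out any single array or whole experiment gave 0 to 4 in place of the 11, and the 1 became 0 except without in-sphere replicate 2 of 48 h, where 2 were called. Sums with an unadjusted p under 0.05 were positive in 4.37% and negative in 6.91% of all genes.

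**Figure D1:**
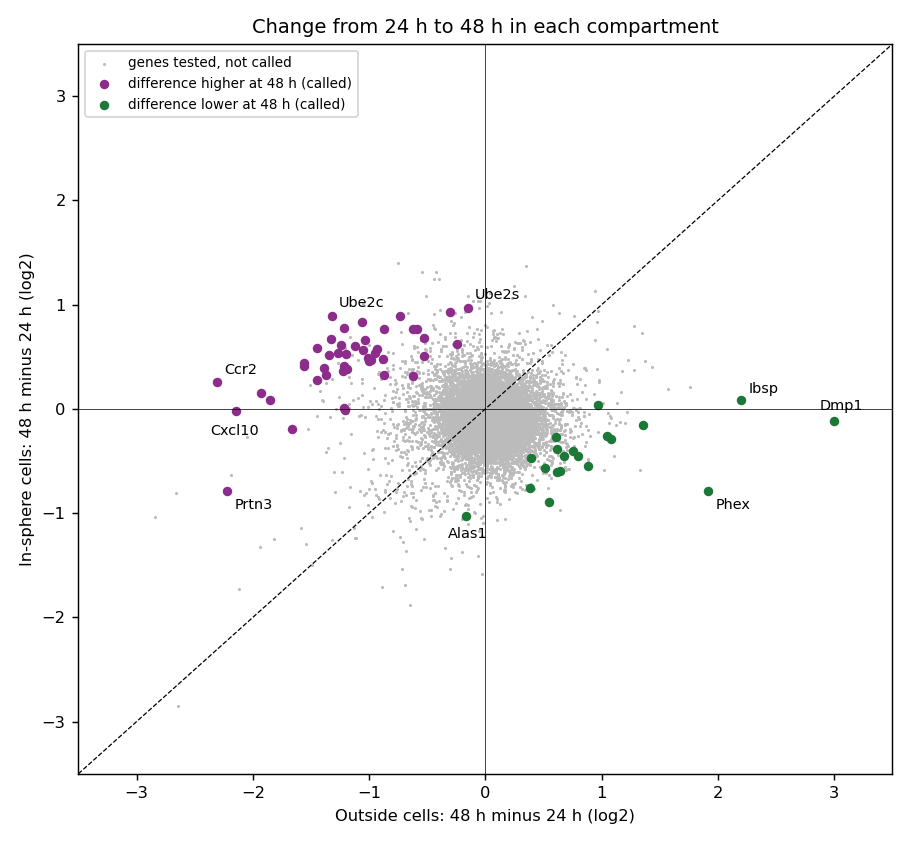
Change from 24 h to 48 h (log2) in outside cells on the horizontal axis and in in-sphere cells on the vertical axis, 1 point per gene tested, with the 45 genes of higher and the 20 of lower change in colour and equal change on the dashed line. Most coloured points lie farther from 0 along the outside axis than along the in-sphere axis, with Alas1 and Ube2s as the exceptions that were called in the in-sphere change.

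In 50 of the 65 genes the in-sphere minus outside difference had the same sign at both times and was larger in size at 48 h. In 1 it was smaller, and in 14 the sign differed between the times. These counts describe fitted values and do not say that a difference was present beyond error at 24 h. At 24 h it was -0.04 for Mfge8 (limma adjusted p = 0.832) and 0.19 for Esco2 (limma adjusted p = 0.633), which are among the 50.

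In-sphere replicate 3 at 48 h stood apart in its level and in-sphere replicate 3 at 24 h in its RNA control probe sets. The mean level of the former was 4.06 against 4.20 to 4.22 on the other arrays, and its median was 3.03. The median change over all genes was -0.105, made of -0.07 in the spheres and 0.03 outside. Centring every array on its median moved the first value to 0.0715, and leaving out in-sphere replicate 3 of 48 h moved it to -0.0237, so small changes are to be read against this shift. Centring added 0.18 to the median of every gene list too. Without in-sphere replicate 3 of 48 h 5 genes were called, 4 of them among the 65. The 3' minus 5' signal of the actin control probe sets, a measure of RNA integrity, was 0.350 to 0.604 in the spheres at 24 h, 0.393 to 0.416 at 48 h, and outside 0.224 to 0.324 at 24 h and 0.370 to 0.396 at 48 h. The highest value, 0.604, was that of in-sphere replicate 3 of 24 h, which also had 0.425 for the Gapdh control against -0.124 to 0.169 on the other arrays. The actin value moved up with time outside, and the part of RNA integrity in the results was not tested. Array weights estimated by limma were lowest for in-sphere replicate 3 of 48 h (0.228) and in-sphere replicates 1 and 3 of 24 h (0.315 and 0.463), against 0.791 to 4.61 for the others. The macrophage markers Adgre1 (F4/80) and Itgam (CD11b) were well above the filter level of 2.77 in all groups, at 10.50 to 11.39 and 8.06 to 9.11, and neither passed the test for the change, at 0.10 and 0.42.

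Cell division gave the largest group. The 27 genes were chosen by their call, so their values describe them and support nothing by themselves. All had a positive change, from 1.12 to 2.21. Outside, 24 of the 27 fell, with a median of -1.20. In the spheres all 27 had positive time changes with a median of 0.53, of which 1 passed the test, and 20 had an unadjusted p under 0.05. The median in-sphere minus outside difference was 0.80 at 24 h and 2.58 at 48 h.

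Mki67 encodes the proliferation antigen Ki-67 of mitotic chromosomes. Its level in the spheres was 9.01, 9.24 and 8.97 at 24 h and 9.79, 9.36 and 9.38 at 48 h in replicates 1 to 3. Outside it was 8.32, 8.87 and 8.26 at 24 h and 6.83, 7.40 and 6.53 at 48 h. The outside arrays of 48 h were the lowest, all in-sphere arrays lay above all outside arrays, and no pair of groups overlapped. The difference changed by 2.00 ± 0.26 (SE, n = 3 per group, adjusted p = 0.0375), of which 0.44 ± 0.19 came in the spheres (adjusted p = 0.388) and -1.56 ± 0.19 outside (adjusted p = 0.00568).

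Ube2c, the ubiquitin-conjugating enzyme of the anaphase-promoting complex, had the largest change of the division genes, 2.21 ± 0.34 (adjusted p = 0.0375). It read 9.20, 9.34 and 8.38 in the spheres at 24 h and 10.06, 9.77 and 9.76 at 48 h. Outside it read 7.72, 8.85 and 7.92, then 6.65, 7.29 and 6.59. The groups overlapped only between the spheres and the outside cells of 24 h. Outside levels fell (-1.32 ± 0.24, adjusted p = 0.0329), and the in-sphere change of 0.89 ± 0.24 did not pass the test (adjusted p = 0.203).

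Ccnb2 encodes a mitotic cyclin that activates CDK1. Levels of 7.97, 7.97 and 7.35 in the spheres at 24 h stood against 8.74, 8.33 and 8.22 at 48 h, and outside 6.49, 7.59 and 6.56 stood against 5.32, 6.19 and 5.14. Again the outside arrays of 48 h were the lowest and the in-sphere arrays of 48 h the highest. The change was 2.00 ± 0.35 (adjusted p = 0.044). Birc5, the survivin subunit of the chromosomal passenger complex, changed by 2.00 ± 0.29 (adjusted p = 0.0375), with -1.22 outside and 0.78 in the spheres. Kif20a, a kinesin of the cleavage furrow, changed by 1.89 ± 0.32 (adjusted p = 0.0421), and here neither side passed the test on its own. The cohesin acetyltransferase gene Esco2 changed by 2.04 (adjusted p = 0.0454) and was below the filter level on all 3 outside arrays of 48 h, so its outside level there is only an upper bound.

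Rrm2, the small subunit of ribonucleotide reductase that supplies deoxynucleotides, was the 1 division gene for which the outside cells moved more beyond error. Its levels were 7.76, 7.97 and 7.23 in the spheres at 24 h, 7.96, 7.81 and 7.63 at 48 h, 6.78, 8.07 and 7.06 outside at 24 h and 5.08, 6.04 and 5.02 outside at 48 h. Only the outside arrays of 48 h stood clear of the other groups. The change was 2.07 ± 0.33 (adjusted p = 0.0375), with 0.15 ± 0.24 in the spheres and -1.93 ± 0.24 outside (adjusted p = 0.00574).

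Ube2s, which extends the ubiquitin chains that Ube2c starts, was the opposite case and is named here after its values were seen. It read 9.44, 9.50 and 9.06 in the spheres at 24 h and 10.46, 10.26 and 10.19 at 48 h. Outside it read 9.40, 9.61 and 9.18, then 9.14, 9.27 and 9.31. Only the in-sphere arrays of 48 h stood apart. Its in-sphere level rose by 0.97 ± 0.14 (adjusted p = 0.0363), the outside change was -0.15 ± 0.14 (adjusted p = 0.732), and the sides were not separated beyond error. Cdkn2c, an inhibitor of CDK4 and CDK6, changed by 1.36 ± 0.25 (adjusted p = 0.0499), with 0.77 in the spheres and -0.59 outside, neither of which passed the test.

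The same picture was seen in a list of 34 tested genes of mitosis and the spindle, which overlaps the 27 genes above. The change was called higher for 13 of them (38.2%) and lower for 0, and 29 had an unadjusted p under 0.05, all higher. All 34 values were positive, with a median of 1.48 against -0.105 over all genes tested. Outside, 16 of the 34 fell, all 34 had negative time changes and the median was -0.98. In the spheres 0 of the 34 passed limma's adjusted test, 18 were higher at an unadjusted p under 0.05, and the median was 0.42. The outside change was larger in size in 32 of 34, and in 0 of the 34 was it larger beyond error by the adjusted test of the sum, with 9 negative sums at an unadjusted p under 0.05. Without in-sphere replicate 3 of 48 h the list's median was 1.45 and the 13 calls became 0, with adjusted p-values of 0.0651 for Mki67, Ube2c and Birc5. The calls also became 0 without in-sphere replicate 2 or 3 of 24 h, outside replicate 2 or 3 of 24 h, in-sphere replicate 1 of 48 h or any outside array of 48 h, and 20 without outside replicate 1 of 24 h. The 16 outside falls became 2 to 9 without in-sphere replicate 2 of 24 h, outside replicate 2 or 3 of 24 h or any outside array of 48 h. Tumour cells divide too, and the summed level of 18 neuroblastoma and neuronal markers other than Cd24a was higher in the spheres, 8.32 to 8.93 at 24 h and 8.38 to 8.59 at 48 h, than outside, 7.69 to 7.77 and 7.52 to 7.61. With Cd24a included the sum was lower in the spheres than outside at both times. Of all 19 markers, 10 were higher and 9 lower in the spheres at 24 h, and 8 and 11 at 48 h. The part of tumour cells in the division result was not tested.

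**Figure D2:**
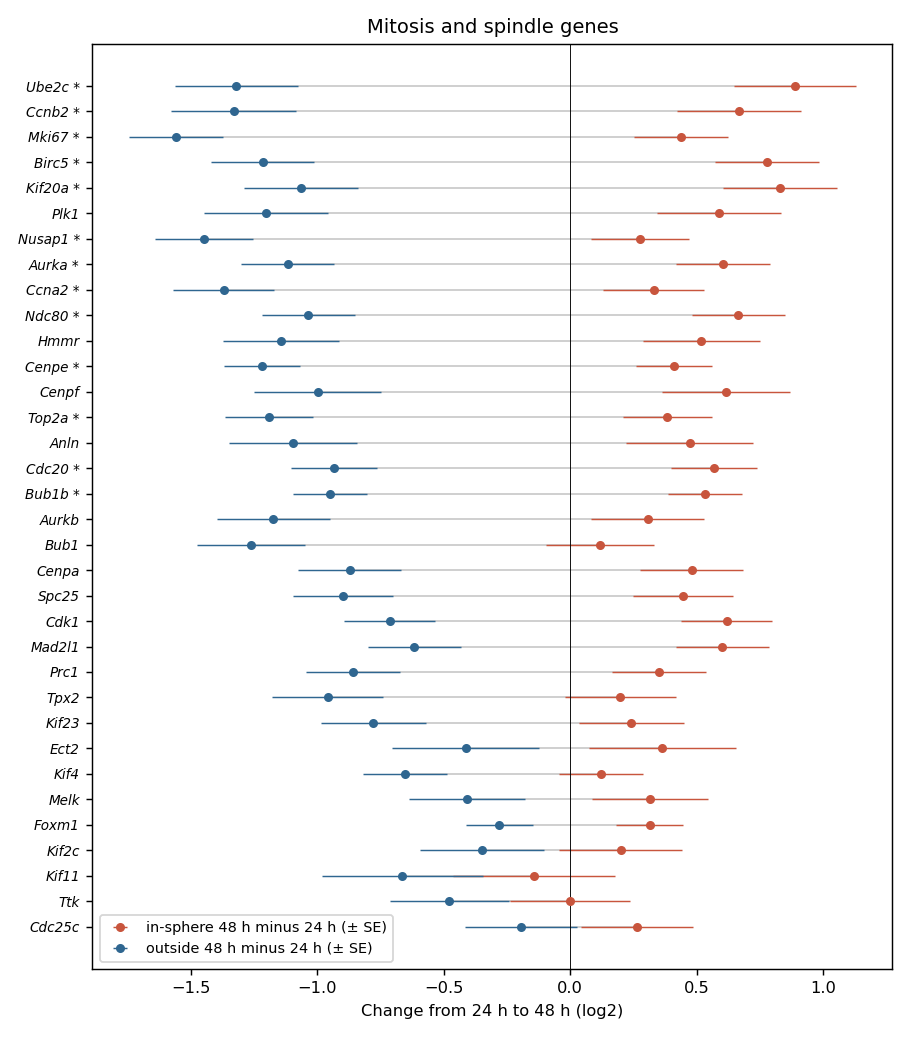
Change from 24 h to 48 h (log2, ± SE of the fit, n = 3 arrays per group) of the 34 mitosis and spindle genes in in-sphere and outside cells, ordered by the change of the difference, with an asterisk on the 13 called genes. Every outside value lies below 0, and the in-sphere values lie mostly above 0 and nearer to it.

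Promoters of the mitosis and spindle list were searched for a pair of short sequences known from cell-cycle genes. They were TTTGAA (the core of the cell-cycle homology region) and CCAAT (the box bound by NF-Y), on both strands of the 250 bases before the start. The motifs do not overlap each other. Of 28 list members with a promoter in RefSeq (GRCm38.p6), 9 held TTTGAA (32.1%), against 10.7% of the 10067 tested genes with a promoter. CCAAT was held by 75% of the 28 and 36.3% of all, and both motifs by 28.6% and 4.02%. The list was picked as genes of mitosis, from which these motifs are known. Its shares thus describe that choice of genes and do not bear on the time change. Of 27 called genes of other roles with a promoter, 11.1% held TTTGAA, 40.7% CCAAT and 3.7% both. The 120 bases before the start are printed below, 5′ to 3′ on the gene's strand, for 5 called genes with large changes or well-known roles in mitosis, with matches of either strand in capitals. They lie at chr2:164769809-164769928 (+) for Ube2c, chr9:70421555-70421674 (-) for Ccnb2, chr11:117849117-117849236 (+) for Birc5, chr7:135716380-135716499 (-) for Mki67 and chr4:118437344-118437463 (-) for Cdc20, an activator of the anaphase-promoting complex.
Ube2c: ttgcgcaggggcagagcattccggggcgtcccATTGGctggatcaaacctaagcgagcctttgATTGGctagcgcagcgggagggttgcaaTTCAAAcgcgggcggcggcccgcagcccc
Ccnb2: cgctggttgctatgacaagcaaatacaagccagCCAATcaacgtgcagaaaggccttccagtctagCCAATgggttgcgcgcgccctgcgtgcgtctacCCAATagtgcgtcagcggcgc
Birc5: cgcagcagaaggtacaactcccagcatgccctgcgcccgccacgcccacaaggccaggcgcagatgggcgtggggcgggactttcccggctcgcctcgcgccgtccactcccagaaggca
Mki67: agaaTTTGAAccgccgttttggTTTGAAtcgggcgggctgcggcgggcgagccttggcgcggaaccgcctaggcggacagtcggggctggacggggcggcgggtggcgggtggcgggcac
Cdc20: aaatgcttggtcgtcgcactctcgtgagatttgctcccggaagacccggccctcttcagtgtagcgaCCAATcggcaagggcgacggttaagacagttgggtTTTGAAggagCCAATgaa
Ube2c and Cdc20 held both motifs in this window, Ccnb2 held CCAAT alone, Mki67 TTTGAA alone and Birc5 neither. A match describes the letters and is not a measured binding site.

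Genes of DNA replication and nucleotide supply moved less. Of 36 tested, 1 was called higher (Rrm2) and 15 had an unadjusted p under 0.05, all higher, with a median of 0.47. Outside, 2 fell (Rrm2 and Cdc45), 15 were lower at an unadjusted p under 0.05, and the median was -0.31. In the spheres 0 passed limma's adjusted test, 4 were higher at an unadjusted p under 0.05, and the median was 0.135. Calls of this list were thus found outside alone.

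**Figure D3:**
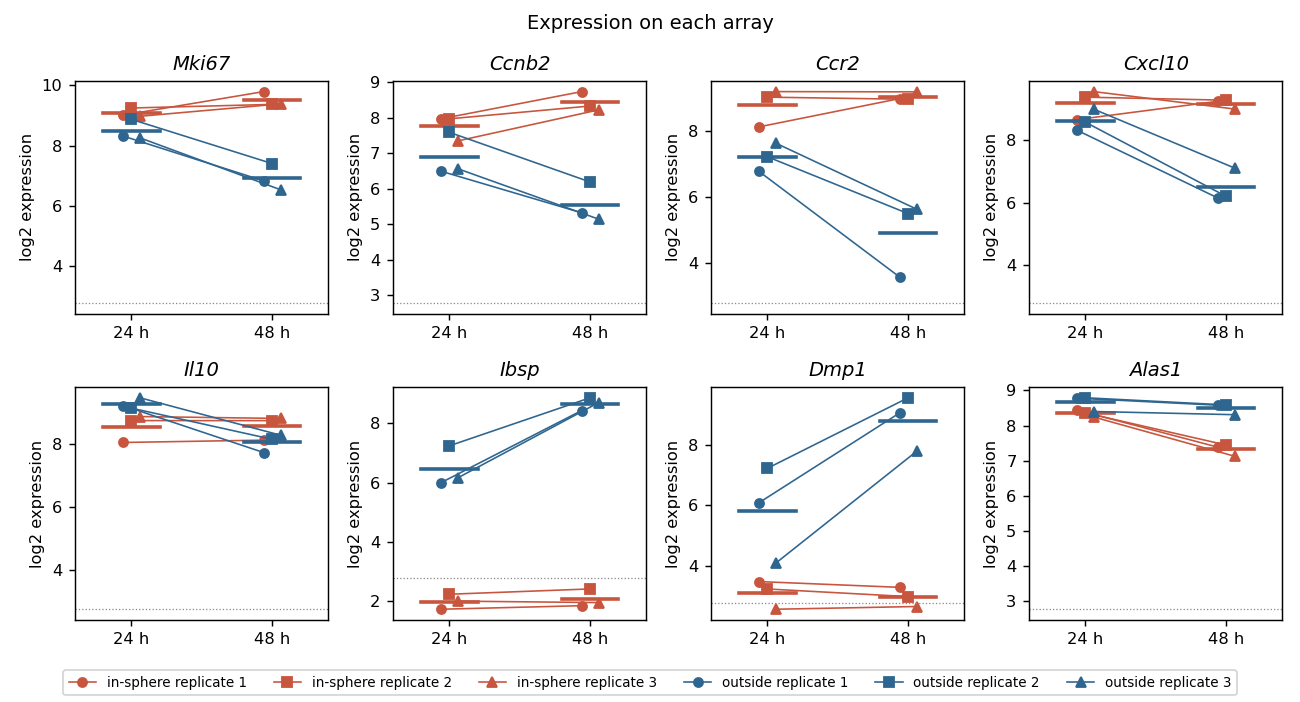
Log2 expression of 8 genes on each array at 24 h and 48 h, with lines joining the arrays of a replicate, bars at group means and a dotted line at the filter level of 2.77. Outside levels go down for Mki67, Ccnb2, Ccr2, Cxcl10 and Il10 and up for Ibsp and Dmp1. In the spheres Mki67 and Ccnb2 are higher at 48 h than at 24 h on all arrays, without passing the adjusted test, and Alas1 goes down.

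Another 13 of the called genes are known from immune signalling or immature myeloid cells. They were grouped after their values were seen, and the wider gene lists around them held 1 or 2 calls each, so the group describes single genes and no program. Outside, 10 of the 13 fell. In the spheres 0 of the 13 passed limma's adjusted test, the unadjusted p was under 0.05 for 7 positive and 1 negative value. The outside cells moved more beyond error in 6 of the 13, Cxcl10, Cd69, Plac8, Prtn3, Il10 and Pde4b. For the other 7 the sides were not separated.

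Ccr2, the receptor that brings monocytes to CCL2, had the largest positive change of all genes. It read 8.12, 9.02 and 9.19 in the spheres at 24 h and 8.98, 8.95 and 9.18 at 48 h. Outside it read 6.77, 7.21 and 7.62 at 24 h and 3.56, 5.49 and 5.62 at 48 h. All in-sphere arrays lay above all outside arrays, and the outside arrays of 48 h lay below those of 24 h. The change was 2.57 ± 0.43 (adjusted p = 0.0421), with 0.26 ± 0.30 in the spheres (adjusted p = 0.774) and -2.31 ± 0.30 outside (adjusted p = 0.00799). By replicate the change was 4.06, 1.66 and 1.99. Of the other 3 Ccr2 probe sets tested, 1 gave 2.41 and the dimmer others 0.71 and 0.43.

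Among secreted signals, Cxcl10, an interferon-induced chemokine for T cells, read 8.66, 9.38 and 9.56 in the spheres at 24 h and 9.25, 9.28 and 9.0 at 48 h, against 8.32, 8.58 and 8.99 outside at 24 h and 6.15, 6.20 and 7.11 at 48 h. Only the outside arrays of 48 h stood apart. The change was 2.12 ± 0.32 (adjusted p = 0.0375), of which -0.02 ± 0.23 lay in the spheres and -2.15 ± 0.23 outside (adjusted p = 0.00276). Without in-sphere replicate 3 of 48 h it was 2.43 (adjusted p = 0.0182).

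Il10, the anti-inflammatory cytokine, crossed over. It read 8.04, 8.73 and 8.85 in the spheres at 24 h and 8.11, 8.72 and 8.79 at 48 h. Outside it read 9.20, 9.12 and 9.45, then 7.72, 8.14 and 8.27. The outside arrays were the highest of all at 24 h, and at 48 h they overlapped the in-sphere arrays from below. The in-sphere minus outside difference went from -0.72 ± 0.15 to 0.50 ± 0.15, a change of 1.22 ± 0.21 (adjusted p = 0.0427). The in-sphere part was 0.00 ± 0.15 and the outside part -1.22 ± 0.15 (adjusted p = 0.00574).

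Cd69, an early activation antigen of leukocytes, had the smallest adjusted p of the higher genes. Its levels were 8.76, 9.45 and 9.46 in the spheres at 24 h, 9.54, 9.70 and 9.65 at 48 h, 8.07, 8.67 and 8.79 outside at 24 h and 6.40, 7.39 and 7.07 outside at 48 h. The arrays of 48 h held both the highest and the lowest values, in and outside the spheres. The change was 1.97 ± 0.22 (adjusted p = 0.0288), with 0.41 in the spheres and -1.56 outside.

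Plac8, abundant in immature myeloid cells, read 10.23, 11.05 and 10.92 in the spheres at 24 h, 10.73, 10.99 and 10.72 at 48 h, 9.65, 10.22 and 10.43 outside at 24 h and 7.60, 8.58 and 8.57 outside at 48 h. The outside arrays of 48 h again lay below all others. Its change was 1.93 ± 0.25 (adjusted p = 0.0375), with 0.08 in the spheres and -1.85 outside (adjusted p = 0.00193). Prtn3, a serine protease of azurophil granules, differed from these genes in that its in-sphere time change was negative too, at -0.79 ± 0.18 (adjusted p = 0.142). The outside cells lost more, -2.22 ± 0.18 (adjusted p = 0.000994), which left a change of 1.43 ± 0.26 (adjusted p = 0.046).

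The nuclear receptors Nr4a1 and Nr4a2, immediate-early genes, changed sign. Nr4a2 read 7.26, 7.71 and 7.54 in the spheres at 24 h, 8.28, 7.75 and 8.04 at 48 h, 7.75, 8.10 and 8.07 outside at 24 h and 6.26, 6.60 and 7.02 outside at 48 h. All outside arrays lay above the in-sphere arrays at 24 h and below them at 48 h. The change was 1.86 ± 0.28 (adjusted p = 0.0375), with a fall outside (-1.35, adjusted p = 0.014) and 0.52 in the spheres (adjusted p = 0.341). The other, dimmer Nr4a2 probe sets gave 1.18, 0.80, 0.54 and -0.13. In a limma fit over all single-gene probe sets their adjusted p-values were 0.142 to 0.816. Nr4a1 changed by 1.03 ± 0.18 (adjusted p = 0.0421), with 0.51 in the spheres and -0.53 outside, neither of which passed the test alone.

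Surface molecules with a called change included Cd83, a marker of activated antigen-presenting cells, at 1.35 ± 0.24 (adjusted p = 0.0446), which fell outside by 0.88 on the log2 scale (adjusted p = 0.0352). Fcrls, an Fc receptor-like scavenger receptor, changed by 1.39 ± 0.25 (adjusted p = 0.0479), with 0.76 in the spheres and -0.62 outside and neither side called. P2ry12, a purinergic receptor best known from microglia and named after its values were seen, was dim: 3.37, 3.14 and 3.49 in the spheres at 24 h, 4.62, 4.12 and 4.04 at 48 h, 2.88 on each of the outside arrays of 24 h and 2.56, 2.52 and 2.64 on those of 48 h. Its change of 1.24 ± 0.21 (adjusted p = 0.0421) lay more in the spheres, at 0.93 ± 0.15 (adjusted p = 0.0536), and the outside level at 48 h was below the filter level on 3 of 3 arrays.

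The wider lists around these genes held few calls, and some moved in part. Of 32 immediate-early and ERK feedback genes, 2 were called higher (Nr4a1 and Nr4a2), the unadjusted p was under 0.05 for 14 positive and 3 negative changes, and the median was 0.44. Both sides contributed, with medians of 0.16 in the spheres and -0.19 outside and with 1 gene called outside and 0 in the spheres, where 11 were higher at an unadjusted p under 0.05. Of 25 chemokines, 1 was called higher (Cxcl10), 3 fell outside and 0 passed limma's adjusted test in the spheres, with 1 positive and 3 negative values at an unadjusted p under 0.05. The chemokine medians were 0.01 in the spheres and -0.30 outside. At an unadjusted p under 0.05, 6 chemokines had a positive and 1 a negative change of the difference, and 9 were lower outside. Of 34 genes for NF-kB subunits, their inhibitors and inflammatory cytokines, 1 was called (Il10) and 3 fell outside, with time medians of -0.19 in the spheres and -0.33 outside. At an unadjusted p under 0.05 these 34 had 7 positive and 3 negative changes, with 15 lower outside and 9 lower in the spheres.

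Among interferon-stimulated genes the call of Cxcl10 stood alone. Of 29 tested, Cxcl10 was the 1 called higher and 0 were called lower, with 1 positive and 0 negative changes at an unadjusted p under 0.05. The list's median change was 0.05, with time medians of -0.42 in the spheres and -0.55 outside, where 1 gene fell (Cxcl10). That near-zero median rested on in-sphere replicate 3 of 48 h and was 0.52 without it. Of 18 receptors of leukocyte trafficking, Ccr2 was the 1 called, and of 19 genes of MHC class II presentation Cd83 was the 1 called, with list medians of -0.05 and 0.06. With arrays centred these medians were 0.13 and 0.23, and without in-sphere replicate 3 of 48 h they were 0.14 and 0.28. At an unadjusted p under 0.05, 6 of the 19 MHC class II genes were higher and 0 lower, against 4.33% and 9.29% of all genes. Of the 18 receptors, 3 were higher and 2 lower. Time medians of the MHC class II list were -0.03 in the spheres and -0.31 outside. Tnf, the inflammatory cytokine, had a change of 0.33 (adjusted p = 0.508), and Cd274, the checkpoint ligand PD-L1, one of -0.57 (adjusted p = 0.356).

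The 3 largest negative changes were those of bone matrix genes. Ibsp (bone sialoprotein), Dmp1 (dentin matrix protein) and Phex (an endopeptidase of phosphate regulation) changed by -2.11 ± 0.25, -3.11 ± 0.57 and -2.70 ± 0.40, with adjusted p-values of 0.0288, 0.0499 and 0.0375. Each rose outside, by 2.20, 2.99 and 1.92. The outside change was the larger in all 3, and for Ibsp beyond error. In the spheres Ibsp was below the filter level on all arrays, and Dmp1 was above it on 2 of 3 arrays at each time. A fall of Ibsp in the spheres could thus not be seen, so its test of the sides shows the outside rise and no more. Among 17 fibroblast and stromal markers, Col1a1, a collagen of bone and connective tissue, and Postn, a matrix protein of such cells, also rose outside, by 1.35 (adjusted p = 0.0144) and 1.28 (adjusted p = 0.0451). The summed level of these markers outside was 9.78 to 10.34 at 24 h and 9.69 to 10.58 at 48 h, and the part of stromal or bone-forming cells in the result was not tested.

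Ibsp read 6.00, 7.24 and 6.16 outside at 24 h and 8.43, 8.86 and 8.70 at 48 h. In the spheres it read 1.73, 2.23 and 2.00 at 24 h and 1.85, 2.41 and 1.95 at 48 h, below the filter level on 3 of 3 arrays each time. The outside arrays of 48 h lay above those of 24 h, and the in-sphere arrays give only a bound. Without in-sphere replicate 3 of 48 h the change was -2.10 (adjusted p = 0.0473).

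Dmp1 varied more between experiments. It read 6.09, 7.22 and 4.10 outside at 24 h and 9.05, 9.55 and 7.78 at 48 h, and 3.49, 3.24 and 2.57, then 3.30, 2.99 and 2.66, in the spheres. Replicate 3 was the lowest outside at both times, and the outside groups did not overlap. Phex was below the filter level outside at 24 h, with 2.45, 2.45 and 2.40, and reached 4.45, 5.15 and 3.45 there at 48 h. In the spheres it read 4.87, 4.23 and 3.56 at 24 h and 3.56, 3.72 and 3.02 at 48 h. The in-sphere arrays were the higher at 24 h, and at 48 h the groups overlapped.

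These 3 genes were also the called members among 21 tested genes of osteoclast differentiation and bone matrix (14.3%), with 0 higher and with 9 lower at an unadjusted p under 0.05. The list's median was -0.47 (-0.28 without in-sphere replicate 3 of 48 h and -0.30 with arrays centred), with -0.12 in the spheres and 0.19 outside. Outside 5 members rose (Dmp1, Phex, Ibsp, Atp6v0d2 and Bglap) while 0 passed limma's adjusted test in the spheres, where 4 were lower at an unadjusted p under 0.05. The called members are bone matrix genes. Osteoclast genes were among those lower at an unadjusted p under 0.05, namely Atp6v0d2, Mmp14 (-1.30), Tnfrsf11a (-0.77), Clcn7 (-0.66) and Ostm1 (-0.45). Others did not reach that level, such as Acp5 (-0.24), Ctsk (-0.17) and Mmp9 (0.13). Atp6v0d2, the proton pump subunit used by osteoclasts, read 9.04, 7.86 and 9.01 outside at 24 h and 10.41, 9.87 and 10.34 at 48 h, and 5.48 to 6.61 over all in-sphere arrays. It rose outside by 1.57 (adjusted p = 0.00624) without overlap of the outside groups, and its change of -1.38 ± 0.28 did not pass the test (adjusted p = 0.064).

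Alas1, the first and rate-limiting enzyme of heme synthesis, was the single gene for which the in-sphere cells moved more beyond error. It read 8.44, 8.36 and 8.24 in the spheres at 24 h and 7.39, 7.44 and 7.13 at 48 h, against 8.78, 8.79 and 8.40 outside at 24 h and 8.58, 8.59 and 8.31 at 48 h. The in-sphere arrays of 48 h lay below all others. The change was -0.86 ± 0.15 (adjusted p = 0.0427), with -1.03 ± 0.10 in the spheres (adjusted p = 0.00804) and -0.16 ± 0.10 outside (adjusted p = 0.576). Among 18 other genes of iron and heme, 0 passed limma's adjusted test and 7 were lower at an unadjusted p under 0.05, with a median of -0.39 (-0.22 with arrays centred). There 6 members were lower in the spheres at an unadjusted p under 0.05 and 3 were higher outside. The iron exporter Slc40a1 had a change of -1.22 ± 0.25 (adjusted p = 0.0704), with -1.05 in the spheres and 0.17 outside.

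Mfge8, a bridging protein by which phagocytes bind dying cells, read 7.55, 7.20 and 6.99 in the spheres at 24 h, 7.36, 7.35 and 7.14 at 48 h, 7.37, 7.32 and 7.18 outside at 24 h and 8.47, 8.18 and 8.14 outside at 48 h. The groups were alike except for the outside arrays of 48 h, which were higher than all others. The change was -0.94 ± 0.17 (adjusted p = 0.045), with 0.04 in the spheres and 0.97 outside (adjusted p = 0.00568). It was the 1 called member of 27 complement and engulfment genes, whose median was -0.107 against -0.105 over all genes.

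The remaining called genes of lower change were mostly of mixed origin. Of 17 outside the bone group, 9 rose outside and 1 fell in the spheres (Alas1), while 13 were lower in the spheres and 16 higher outside at an unadjusted p under 0.05. Npy, a neuropeptide, changed by -1.43 ± 0.25 (adjusted p = 0.045), with -0.55 in the spheres and a rise of 0.88 outside (adjusted p = 0.0451). The creatine transporter Slc6a8 changed by -1.36 (adjusted p = 0.0499) and rose outside by 1.08 (adjusted p = 0.0222). Gpr137b, a lysosomal membrane protein, changed by -1.25 (adjusted p = 0.0433) and rose outside by 0.80 (adjusted p = 0.0362). Hvcn1, a voltage-gated proton channel of phagocytes, changed by -1.14 (adjusted p = 0.0421), with -0.76 in the spheres and 0.38 outside. The motor proteins Myo10, of filopodia, and Myo1e changed by -1.44 and -1.24 (adjusted p = 0.0497 and 0.0375). For each of the latter 3 genes, neither side was called alone.

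Car12, a carbonic anhydrase induced by hypoxia, lost its difference. It read 4.18, 3.93 and 3.72 in the spheres at 24 h and 3.49, 3.36 and 3.16 at 48 h, and 2.97, 2.52 and 2.51, then 3.15, 3.63 and 3.07, outside. In-sphere arrays were the higher at 24 h, and the groups overlapped at 48 h. The difference went from 1.28 to 0.05, a change of -1.23 ± 0.22 (adjusted p = 0.0487). It was the 1 called gene of 28 in the hypoxia list, whose median change was -0.07, and 0 of 22 glycolysis genes passed limma's adjusted test, with 2 lower at an unadjusted p under 0.05. Both lists had medians of in-sphere minus outside differences that stayed high, 1.29 at 24 h and 1.39 at 48 h for hypoxia and 0.85 and 0.86 for glycolysis. Neither list held a called time change on either side. Time medians were -0.11 in the spheres and -0.01 outside for hypoxia, and -0.17 and -0.03 for glycolysis.

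In the lists of lysosome, MiT/TFE and lipid genes, 0 genes passed limma's adjusted test of the change. Lysosomal genes had a median of -0.17 over 29 genes, with 6 negative and 0 positive changes at an unadjusted p under 0.05, and it turned to 0.0019 when arrays were centred. Time medians were 0.10 in the spheres and 0.30 outside, and the outside value was the larger in size in 25 of 29, with 1 of them called (Atp6v0d2). At an unadjusted p under 0.05, 13 of the 29 were higher and 0 lower outside, against 7.05% and 5.27% of all genes. In the spheres 1 was higher and 1 lower at that level. MiT/TFE, Rag GTPase and autophagy genes had a median of -0.24, with 7 of 24 lower at an unadjusted p under 0.05. That median was -0.13 without in-sphere replicate 3 of 48 h and -0.06 with arrays centred. There Rragd, a Rag GTPase of nutrient sensing, rose outside by 1.06 (adjusted p = 0.0451) with a change of -1.19 (adjusted p = 0.127). Genes of PPAR gamma, LXR and lipid handling had a median of -0.28, with 8 negative and 2 positive values among 26 at an unadjusted p under 0.05, and it was -0.10 with arrays centred. Their time medians were -0.09 in the spheres and 0.16 outside, with 0 calls in the spheres and 1 gene called higher outside. Pparg itself had a change of -0.86 ± 0.17 (adjusted p = 0.058), with -0.62 in the spheres and 0.24 outside.

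Among growth factors, Igf1 had a change of -1.0 ± 0.19 (adjusted p = 0.0552), with -0.40 in the spheres and 0.60 outside. Its other probe sets gave -1.20, -1.12 and -1.27. In a limma fit over all single-gene probe sets these had an adjusted p of 0.04645 each, and the one used had 0.069. The list of 33 had 7 negative and 1 positive values at an unadjusted p under 0.05. Its time medians were -0.10 in the spheres and 0.08 outside, with 0 calls in the spheres and 2 genes called higher outside. The mitochondrial folate enzyme Aldh1l2 had a change of -1.92 ± 0.37 (adjusted p = 0.058) and rose outside by 1.33 (adjusted p = 0.0425). Ankrd1, a target of YAP and mechanical stress, had a change of 1.69 ± 0.33 (adjusted p = 0.0588), and the larger part of it lay in the spheres, 1.25 against -0.44 outside, neither of which passed the test. Arginase 1, Arg1, stayed at 12.43 to 12.94 on all in-sphere arrays and spread from 5.27 to 10.25 outside, so its change of 0.61 ± 1.1 was within error (adjusted p = 0.85). Mrc1, the mannose receptor, had time changes of 0.93 in the spheres and 0.97 outside and a change of -0.03 (adjusted p = 0.974).

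Further lists had few or no calls. In 27 genes of p53 targets, cell-cycle inhibitors and D cyclins 1 was called (Cdkn2c), in 32 scavenger, lectin, Toll-like and Fc receptors 1 (Fcrls) and in 32 collagen and matrix genes 1 (Col14a1), which passed the filter only through the in-sphere arrays of 48 h, where it was highest. Median changes were 0.07, -0.03 and -0.24, and 0.25, 0.15 and -0.06 with arrays centred. Outside, 1 receptor gene rose and 2 fell, and 2 matrix genes rose and 1 fell. In the spheres 1 matrix gene rose. For the change of the difference, no call by limma's adjusted test was made among genes of cholesterol synthesis (2 positive and 0 negative changes at an unadjusted p under 0.05), NRF2 targets (1 and 2), ER chaperones and stress response (3 and 6), amino acid supply (2 and 4), heat-shock chaperones (1 and 1), interleukin-4 response (1 and 4), extracellular proteolysis (1 and 6), YAP and TGF-beta pathways (1 and 0), macrophage identity (2 and 2) or the BCL2 family (0 and 1). Their time changes held 0 calls in the spheres and 5 outside, where Nqo1 (an NRF2 target), Hspa1b (a heat-shock chaperone) and Mgl2 (a lectin of interleukin-4 response) fell and Aldh1l2 and Mmp12 (macrophage elastase) rose. Of these lists, NRF2 targets had time medians of -0.25 in the spheres and -0.10 outside, with 9 of 26 lower in the spheres at an unadjusted p under 0.05 and 0 by limma's adjusted test, and proteolysis genes -0.18 and 0.02. Mmp2, a gelatinase of the proteolysis list, had a change of -1.61 ± 0.36 (adjusted p = 0.0881), with -0.97 in the spheres and 0.65 outside.

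Median changes of housekeeping groups lay between the quartiles of all genes, -0.31 and 0.09, except that of proteasome subunits, which lay just above. Medians were -0.06 for 35 subunits of oxidative phosphorylation, -0.04 for 34 mitochondrial and 0.04 for 29 cytosolic ribosomal proteins, -0.12 for 35 genes of ribosome biogenesis and 0.10 for 35 proteasome subunits. In these lists 0 genes passed limma's adjusted test, and at an unadjusted p under 0.05 there were 2 higher (both proteasome) and 3 lower genes (1 each in oxidative phosphorylation, ribosome biogenesis and proteasome). When arrays were centred, the negative ones of these medians turned positive. Of the 35 proteasome subunits, 25 had a positive change and 28 a negative time change outside, against 4437 and 5457 of all 12488 genes. Their time medians were 0.02 in the spheres and -0.10 outside.

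**Figure D4:**
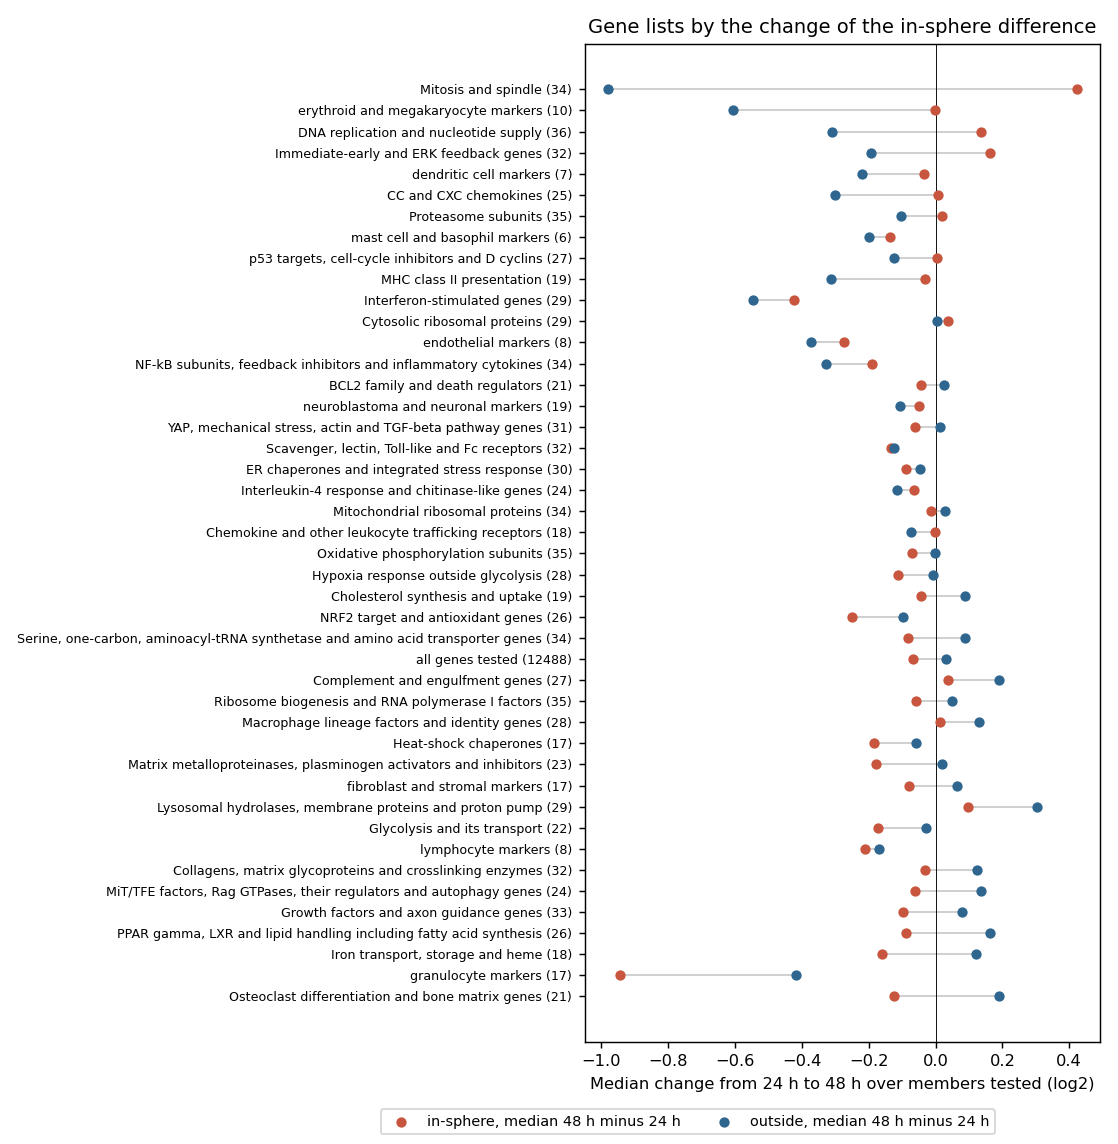
Median change from 24 h to 48 h (log2) of each gene list in in-sphere and outside cells, with the number of tested members in brackets, ordered by the median change of the difference from the most positive at the top. Mitosis genes show the widest gap, from -0.98 outside to 0.42 in the spheres, and osteoclast and bone genes, at the bottom, go from 0.19 outside to -0.12 in the spheres.

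Markers of other cell types were followed on the same arrays. Granulocyte markers had time medians of -0.94 in the spheres and -0.42 outside, and the log2 of their summed level was 14.41 to 14.86 in the spheres at 24 h, 13.83 to 14.48 at 48 h, 15.60 to 15.90 outside at 24 h and 15.31 to 15.75 at 48 h. Of 17 tested, Prtn3 was called higher, and at an unadjusted p under 0.05 there were 2 positive and 6 negative changes. The in-sphere side moved with 3 falls (Olfm4, Ltf and Ctsg), and outside 4 fell (Prtn3, Ctsg, Mpo and Fcnb). The fall of Prtn3, Mpo, Ctsg and Fcnb outside stood beside that of the immature myeloid gene Plac8 and of the division genes. These 4 also had negative time changes in the spheres, -0.79, -1.49, -1.33 and -1.30, against -2.22, -1.49, -1.94 and -1.54 outside. In the spheres Plac8 had 0.08, and all 27 called division genes had positive values. At an unadjusted p under 0.05, 14 of the 17 granulocyte markers were lower in the spheres and 9 outside. The part of immature cells in these results was not tested.

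Red cell and megakaryocyte markers had summed levels of 12.45 to 12.65 outside at 24 h and 11.64 to 12.09 at 48 h, against 12.91 to 13.22 and 13.02 to 13.08 in the spheres. These sums were carried by the platelet chemokines Pf4 and Ppbp. Without them the sum over the other 8 was 9.51 to 9.97 outside at 24 h and 7.57 to 8.56 at 48 h, and lower in the spheres, at 6.58 to 6.97 and 6.15 to 7.0. At 24 h 8 of the 10 markers had the lower level in the spheres, with a median difference of -1.34, and at 48 h 7 of 10, with -0.92. Of the 10 tested, 0 passed limma's adjusted test of the change, 5 were higher at an unadjusted p under 0.05 and 9 were positive. The markers Alas2, Slc4a1 and Car1 were below the filter. Hba-a1, alpha globin and the 1 marker of the 10 called in the outside time change, fell outside by 2.66 on the log2 scale (adjusted p = 0.00764), and its change of 1.85 ± 0.49 (adjusted p = 0.14) was 2.40 without in-sphere replicate 3 of 48 h (adjusted p = 0.0326). The part of such cells in the results was not tested.

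For tumour cells, 9 of 28 neuroblastoma and neuronal markers with a probe set were below the filter, among them Chga, Tubb3, Gata3, Alk and Ret. Of the 19 tested, 0 passed limma's adjusted test of the change, with 3 positive and 1 negative values at an unadjusted p under 0.05 and a median of -0.02. Their summed level was 9.80 to 9.84 in the spheres at 24 h, 9.23 to 9.41 at 48 h, 11.06 to 11.79 outside at 24 h and 10.84 to 11.52 at 48 h. The transcription factor gene Mycn had a change of 0.73 (adjusted p = 0.311). The sum was carried by Cd24a, which other leukocytes also express and which was at 9.01 in the spheres and 11.30 outside at 24 h. Without it the order turned, as given beside the division genes. The growth cone gene Gap43 was at 6.97 in the spheres and 2.98 outside at 24 h, and the adhesion gene Ncam1 at 6.23 and 5.24. Of the 19 markers, 10 were higher in the spheres at 24 h and 8 at 48 h, with median differences of 0.02 and -0.04.

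Fibroblast and stromal markers were all above the filter, with 0 of 17 passing limma's adjusted test of the change and 1 higher at an unadjusted p under 0.05. Their summed level was 11.40 to 12.37 in the spheres at 24 h, 11.96 to 11.98 at 48 h, 9.78 to 10.34 outside at 24 h and 9.69 to 10.58 at 48 h. The collagen gene Col1a2 rose in the spheres by 1.37 (adjusted p = 0.0253) with a change of 1.02 (adjusted p = 0.118), while Col1a1 rose outside by 1.35 (adjusted p = 0.0144) with a change of -0.62 (adjusted p = 0.367). Col14a1, a collagen of the matrix list, was called at 0.86 ± 0.15 (adjusted p = 0.0467) although it was above the filter level in 1 group alone, the in-sphere arrays of 48 h. Endothelial, lymphocyte, mast cell and dendritic cell markers gave 0 calls in limma's adjusted test of the change, with 2 positive and 0 negative values among 29 tested at an unadjusted p under 0.05. The lymphocyte marker Cd79b fell outside by 0.84 on the log2 scale (limma adjusted p = 0.0451).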

How the data were processed

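Gene expression of in-sphere and outside macrophages was measured on 12 Affymetrix mouse arrays, 3 per group at 24 h and 48 h. Per the submitters' processing notes, the authors used RMA (Affymetrix Expression Console 1.1) to make the deposited log2 value of each probe set. The log base was taken from the values. RMA normalises arrays towards a common distribution, so a difference in total RNA cannot be seen, and dim probe sets give compressed differences. The deposited values did not fully share 1 distribution, since the mean of in-sphere replicate 3 of 48 h was 4.06 against 4.20 to 4.22 on the other arrays. Precision is limited by the number of arrays.

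Of 45141 probe sets, 28898 had 1 gene symbol in the platform annotation, and 551 with several and 15692 without a name were left out. RefSeq (GRCm38.p6) held 28689 of the single-gene probe sets and altered 0 symbols. The probe set with the highest mean was used for each of 17097 genes, and 12488 genes above 2.77, the 40th percentile of all values, on at least 3 arrays were tested.

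The model in limma 3.58.1 (R 4.3.3) had the 4 group means and the replicate number as a fixed block, with 6 residual and 4.42 prior degrees of freedom, and p-values were Benjamini-Hochberg adjusted over all genes tested at a threshold of 0.05. Errors are standard errors of this fit. The sum of the time changes of both compartments tested which of them moved more. The fit was tested on simulated data. Replicate numbers come from the labels and stand for independent experiments, per the series' design text. Deviations from group means correlated at 0.419 to 0.473 between outside arrays of 24 h and 48 h with the same number and at -0.264 to -0.143 with different numbers, and same-number correlations of all other group pairs were 0.0215 to 0.219.

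Members and gene lists were chosen with earlier results of these data known. The genes named are the 12 largest called changes per direction that have 1 sign in the 3 experiments, passing over uncharacterised models, up to 6 per direction in which a single compartment moved more, up to 4 called genes per list or up to 2 as values, and a fixed set of macrophage genes, and other names were chosen after their values were seen. Some listed genes are not reported here. Alternatives were other block structures, filters, floors, normalisations, probe set summaries, array weights, variance models and left-out arrays and, added after seeing the data, fits within each compartment alone.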

Additional observations from a re-analysis of the deposited data

Results flagged for a closer look

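All 65 called genes are listed here because the time change differed between in-sphere and outside cells in a test of that difference itself. Values are the change of the in-sphere minus outside difference from 24 h to 48 h on the log2 scale, with adjusted p-values from 0.0288 to 0.0499 (limma, 3 arrays per group), and each has 1 sign in 3 of 3 experiments, which the choice of genes by the same values largely fixes.

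Among the genes of cell division the change was 2.21 for Ube2c, 2.07 for Rrm2, 2.04 for Esco2, 2.00 for Ccnb2, 2.00 for Mki67, 2.00 for Birc5, 1.89 for Kif20a, 1.86 for Pbk and 1.81 for Aspm. It was 1.77 for Pclaf, 1.72 for Cdca3, 1.72 for Nusap1, 1.72 for Aurka, 1.70 for Ccna2, 1.70 for Ndc80, 1.63 for Cenpe, 1.62 for Cep55 and 1.59 for Shcbp1. The smaller changes of this group were 1.58 for Top2a, 1.50 for Cdc20, 1.50 for Racgap1, 1.48 for Bub1b, 1.45 for Dlgap5, 1.45 for Asf1b, 1.36 for Cdkn2c, 1.20 for Cdca8 and 1.12 for Ube2s.

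In genes of immune signalling and immature myeloid cells it was 2.57 for Ccr2, 2.12 for Cxcl10, 1.97 for Cd69, 1.93 for Plac8, 1.86 for Nr4a2, 1.43 for Prtn3, 1.39 for Fcrls, 1.35 for Cd83, 1.24 for P2ry12, 1.22 for Il10, 1.20 for Pde4b, 1.03 for Nr4a1 and 0.94 for Gpr171. Other genes with a higher change gave 1.64 for Hmgb3, 1.63 for D17H6S56E-5, 1.47 for BC035044, 1.21 for Uba6 and 0.86 for Col14a1.

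The bone matrix genes gave -3.11 for Dmp1, -2.70 for Phex and -2.11 for Ibsp. Other genes with a lower change gave -1.50 for C77080, -1.44 for Myo10, -1.43 for Npy, -1.36 for Slc6a8, -1.31 for Mtx3, -1.25 for Gpr137b, -1.24 for Myo1e, -1.23 for Car12 and -1.16 for Lrp11. The smallest of these were -1.14 for Hvcn1, -1.13 for Wsb2, -1.08 for Zfp267, -0.99 for Ctsf, -0.94 for Mfge8, -0.88 for Socs6, -0.87 for Tmem202 and -0.86 for Alas1. No explanation of these values was tested. With 3 arrays a group, the test for a single far value, which needs 4, was not applied to genes.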

How the results depend on the processing

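The changes are reported from a fit with the replicate block. With no replicate block the fit called 0 genes higher and 0 lower (smallest adjusted p = 0.0657), 0 genes in the in-sphere and 42 in the outside time change, and 0 genes moved more in either compartment. With the replicate block fitted within each time 0 genes were higher and 0 lower (smallest adjusted p = 0.0962), and with the block as a random effect, at a correlation of 0.0329, 0 and 0, with 49 in the outside time change and 0 moving more in either compartment.

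Without a filter on low values 12 genes were lower. With low values set to the filter level 13 were lower, and 2 genes moved more in the spheres and 7 outside. Centring the arrays gave 140 higher, 74 in the in-sphere change, 279 in the outside change and 20 moving more outside, which raised the share of higher calls from 69.2% to 85.4%. A further quantile normalisation gave 92 higher, 31 lower, 43 in the in-sphere change, 256 in the outside change and 2 moving more in the spheres. The mean of a gene's probe sets gave 33 lower and 2 moving more in the spheres. Array weights gave 126 higher, 103 lower (55% higher), 52 and 810 in the in-sphere and outside changes, and 10 and 38 moving more in the spheres and outside. A variance trend with robust estimation gave 111, 49, 88, 295, 4 and 24 in that order. Leaving out outside replicate 1 of 24 h gave 44 higher and 7 lower (86.3% higher).

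Within 1 compartment, with the replicate block, 0 genes were called in the in-sphere arrays alone (smallest adjusted p = 0.0536, 936 genes at an unadjusted p under 0.05) and 693 in the outside arrays alone. The median residual SD was 0.196 in the spheres and 0.124 outside, so fewer calls in the spheres come with a larger spread.

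Leaving out single arrays or whole experiments gave 0 to 50 genes higher, 0 to 22 lower, 0 to 18 in the in-sphere change, 27 to 234 (single arrays) and 1 to 18 (whole experiments) in the outside change, 0 to 2 moving more in the spheres and 0 to 4 outside. Leaving out any whole experiment (replicate 1, 2 or 3) gave 0 calls in either direction and 18, 1 and 14 in the outside change, and each such fit has 3 residual degrees of freedom. The cause of these shifts was not tested. Of 3421 values of single genes under the alternatives, 2259 kept their direction and their side of the threshold, 1118 lost and 44 gained the call. The called genes reversed in 0 cases, which the reuse of the arrays that chose them largely fixes. The mitosis list's median stayed between 1.15 and 1.67 over all alternatives and its count of calls between 0 and 24. Of 30 other probe sets of called genes, 29 had the same sign and 20 of those an unadjusted p under 0.05. For arrays the signal over background limits what dim genes such as Ibsp, Phex and Col14a1 show in the groups below the filter level.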
